A study of Danio rerio with 4 samples.

Results

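The cytosolic ribosome of zebrafish (Danio rerio) embryos was examined through its ribosomal protein genes. Genes were taken by symbol: rpl or rps followed by a digit, rpsa, and the stalk genes rplp0, rplp1 and rplp2, without the rps6k kinases. This gave 82 genes of 14905 named genes in the files, 48 of the large subunit and 34 of the small subunit. Of these, 81 had a RefSeq transcript in the deposited expression table and 80 had at least 1 long-read transcript model. The pattern also takes the paralogs rpl7l1, rpl22l1, rplp2l and rps26l. It does not take faua and faub, which encode a ribosomal protein as a fusion, nor a gene named rps27l in RefSeq that the long-read tables call zgc:136826.

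The α-amanitin group was a pool of 15 embryos that had received 0.2 nmol of this RNA polymerase inhibitor by injection between the stages of 1 and 4 cells, and the untreated group was a pool of 15 untreated embryos at epiboly. Parents were wild-type AB, TAB14 or TAB5 fish, and the labels do not say which of these gave which pool. Both pools are labelled 6 hours post fertilization, although another label of the α-amanitin pool names an earlier stage and the title places it before zygotic genome activation. Each group is 1 polyadenylated RNA library read on the PacBio platform, so differences between the groups were not replicated and were not tested. Short-read libraries of untreated embryos at 2.5 and 5.25 hours post fertilization belong to the same study, and their own files were not analysed here.

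Expression values come from a series-wide table with an α-amanitin column and a control column, converted here to transcripts per 1000000 (TPM), a level that is adjusted for transcript length. The table does not state which reads it quantified. If it holds the short-read libraries, the ratios below compare stages and not the treatment. If it holds the long-read libraries, treatment and stage cannot be told apart, because the labels disagree on the stage of the α-amanitin pool. The same limit holds for the long-read models. The number of reads behind each column cannot be recovered from TPM. Zygotic marker genes were used to check the columns, and 8 of the 10 listed were found. All 8, such as tbxta (0.757 TPM in the α-amanitin column, 371 TPM in the control column) and sox32 (0.348 against 200.5 TPM), were at least 2-fold lower in the α-amanitin column. The 4 maternal genes found of 6 listed, such as zar1l (939 against 25.9 TPM), were at least 2-fold higher in it. Markers of later tissues (8 genes, among them hbae1.1 and elavl3) stayed at or under 5.62 TPM in both columns. The values are relative, and in whole embryos fewer cells of a type cannot be told apart from less RNA per cell.

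Ribosomal proteins coat the ribosomal RNA of the small subunit, which decodes the mRNA, and of the large subunit, which forms the peptide bond. Nearly all are needed once per ribosome, and their mRNAs are short, abundant and known as TOP mRNAs, after a stretch of pyrimidines at the start of the transcript through which growth signals set their translation. The fish egg is stocked with maternal ribosomes and ribosomal protein mRNA, and the embryo starts to make its own after zygotic genome activation.

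As a group, the RefSeq transcripts of ribosomal protein genes were less abundant in the α-amanitin column. They summed to 23754 TPM there, 2.38% of the column, and to 40458 TPM in the control column, 4.05%. The ratio of the sums was 0.587. Of the TPM in RefSeq rows alone, the sums were 5.77% and 9.12%. The remaining TPM of each column lay in PacBio transcripts that were not joined to genes. Their part in the group sums and ratios was not tested. The large subunit genes summed to 13400 TPM in the α-amanitin column and 23160 TPM in the control column (47 genes), and the small subunit genes to 10354 and 17298 TPM (34 genes). The median gene was at 227 TPM in the α-amanitin column (quartiles 77.4 and 459) and at 504 TPM in the control column (181 and 695). For all 14792 named genes the medians were 2.71 and 3.27 TPM. Of the 100 most abundant genes, 16 were ribosomal protein genes in the α-amanitin column and 36 in the control column.

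Changes were measured as the log2 ratio of (TPM + 1), α-amanitin over control, which understates the change of low transcripts. Of the 81 genes, 69 were lower in the α-amanitin column and 12 were higher. Of all 14792 named genes, 7285 were lower and 7014 were higher. The 12 include rpl35, listed at 2.28e-05 TPM in the α-amanitin column and 0 in the control column. At least 2-fold lower were 39 genes (48.1%), where 22.5% of all named genes passed that threshold, and at least 2-fold higher were 5 (6.17%), where 25.7% of all named genes did. The median log2 ratio was −0.95 (quartiles −1.75 and −0.31), and that of all named genes was 0.00. Among genes of at least 10 TPM in either column, 39 of 78 ribosomal protein genes were at least 2-fold lower, with 26.95% of all genes of that level, and 4 were at least 2-fold higher, with 42.0%. Among genes of at least 100 TPM in either column, 31 of 68 ribosomal protein genes were at least 2-fold lower, with 29.5% of all genes of that level, and 3 were at least 2-fold higher, with 37.8%. The median log2 ratios at that level were −0.87 for the ribosomal protein genes and 0.36 for the 1124 other genes. The 2 subunits had like values: 21 of 47 large subunit genes and 18 of 34 small subunit genes were at least 2-fold lower, with median log2 ratios of −0.85 and −1.04.

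The median log2 ratio of all named genes was 0.00, but transcripts present in both columns were not centred there. The median log2 ratio of RefSeq transcripts that reached 1 TPM in both columns was 0.48, so relative to these transcripts each ratio is lower by that amount. On this scale 55 of the 81 ribosomal protein genes were at least 2-fold lower, 3 were at least 2-fold higher (rpl28, rplp2 and rps8b), and the median was −1.43. The share of all named genes that was at least 2-fold lower became 30.4%, and at least 2-fold higher 18.8%. The direction of the group did not depend on the choice. Scaling turned 6 genes from higher to lower, namely rplp1, rps14, rps26, rps15a, rpl7a and rpl35.

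**Figure D1:**
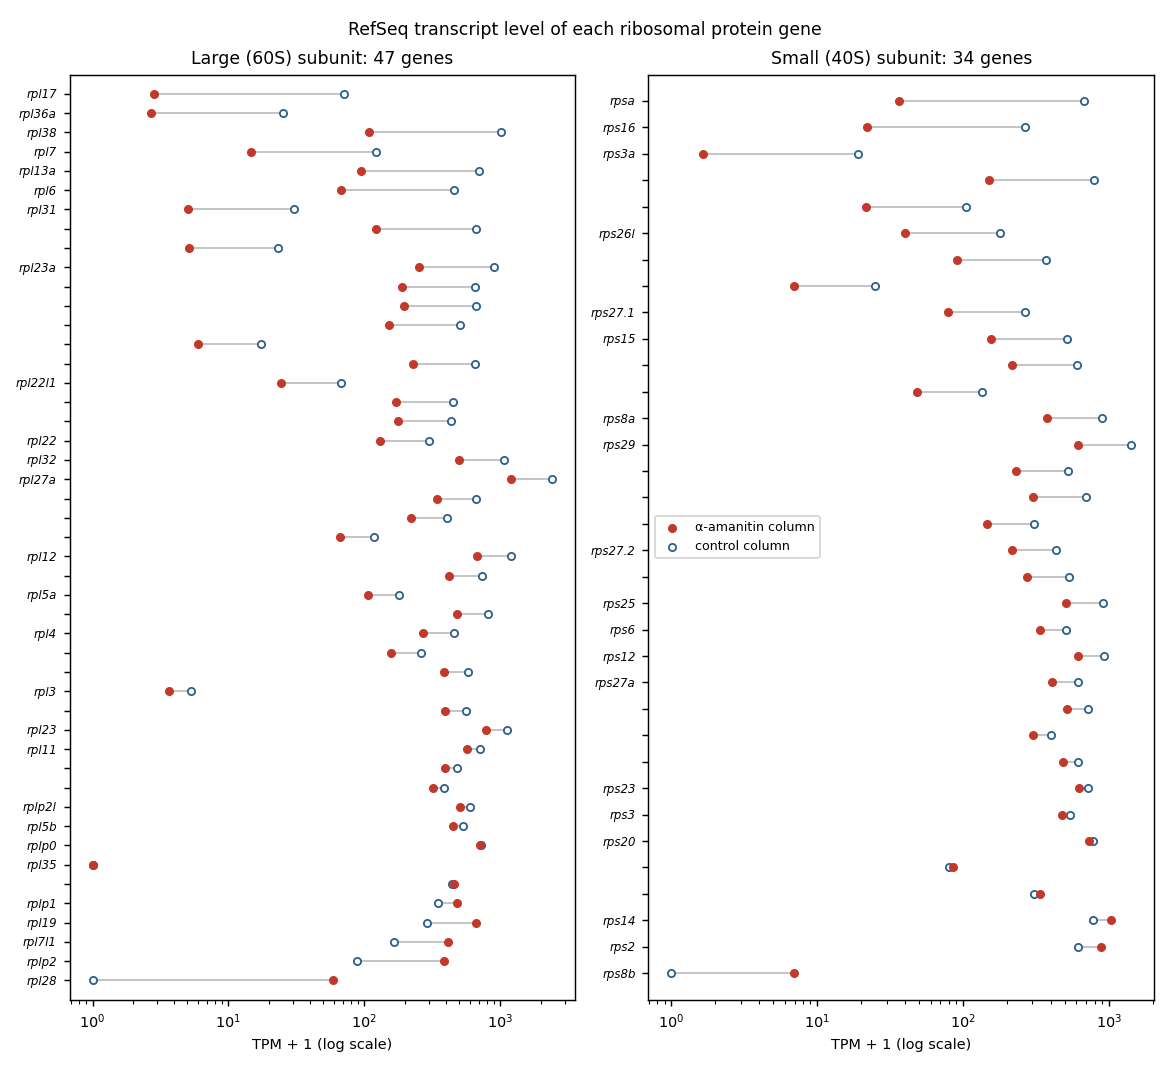
RefSeq transcript level of each ribosomal protein gene, as TPM + 1 on a log axis, in the α-amanitin column (filled circles) and the control column (open circles), with the genes of each subunit ordered by log2 ratio from the lowest at the top and a label for genes whose levels the text gives. In 69 of 81 genes the filled circle lies left of the open one, and rpl28, rps8b, rplp2, rpl7l1 and rpl19 lie at least 2-fold the other way.

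The largest reductions were spread over both subunits. Rpl17, which lines the exit tunnel of the nascent peptide, was at 1.85 TPM in the α-amanitin column against 70.1 TPM in the control column, a log2 ratio of −4.64. The laminin receptor gene rpsa, a protein of the small subunit, was at 35.5 against 675.8 TPM (−4.21). Rps16, whose tail reaches the tRNA in the P site, was at 21.1 against 266 TPM (−3.59). These genes ranked 1037, 67 and 241 among all named genes in the control column, so the lower group included transcripts that were abundant in that column.

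Rpl38, known from mouse for its part in the translation of Hox mRNAs, was at 107.6 TPM in the α-amanitin column and 1012 TPM in the control column (log2 ratio −3.22). Rpl13a, which in mammals also leaves the ribosome to silence inflammatory mRNAs, was at 93.1 against 703 TPM (−2.90). Rpl7 was at 13.7 against 121 TPM (−3.05), and rpl6 at 66.5 against 456 TPM (−2.76). The 3 others among the 10 lowest ratios lay below most ribosomal protein genes in both columns. They were rps3a with 0.638 against 18.02 TPM, rpl36a with 1.70 against 24.4 TPM and rpl31 with 4.06 against 29.4 TPM. Log2 ratios of these 3 lay between −3.54 and −2.59.

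At the other end stood a short list of genes with more transcript in the α-amanitin column. Rplp2, an acidic protein of the stalk that recruits translation factors, was at 385 TPM in the α-amanitin column against 87.0 TPM in the control column (log2 ratio 2.13). Rpl7l1 was at 417 against 165 TPM (1.33), and rpl19, which forms a bridge between the subunits, at 669 against 289 TPM (1.21). Rpl28 was at 57.9 TPM in the α-amanitin column and at 6e-05 TPM in the control column. That control value is close to 0, and rpl28 had an intron-matched long-read model in each library.

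The next genes in this order differed by less than 2-fold: rps2 (881 against 619 TPM, log2 ratio 0.51), rplp1 (486 against 351 TPM, 0.47), rps14 (1037 against 785 TPM, 0.40), rps26 (0.15), rps15a (0.09) and rpl7a (0.06). On the scaled values rps2 stood at 0.03 and the 5 others below 0.

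The stalk and other functional sites did not share one pattern. In the stalk, rplp0, the base that holds the acidic proteins, had 716 TPM in the α-amanitin column and 729 TPM in the control column (log2 ratio −0.03), while rplp1 and rplp2 were higher in the α-amanitin column. The proteins that carry the small ribosomal RNA of the large subunit and bind Mdm2 when free were rpl11 (576 against 712 TPM, −0.31), rpl5a (106 against 181 TPM, −0.77) and rpl5b (453 against 534 TPM, −0.24). All 3 lay within 2-fold.

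On the exit tunnel, rpl4 had 269.9 TPM in the α-amanitin column and 455 TPM in the control column (log2 ratio −0.75), against −4.64 for rpl17. On the decoding side of the small subunit, rps3 was at 475 against 540.2 TPM (−0.18) and rps23 at 624 against 721 TPM (−0.21). Rps15, with a tail near the decoding site, was at 154 against 519 TPM (−1.74), and was the one of this group with at least a 2-fold difference. Rps6, the target of S6 kinase, was at 335 against 506 TPM (−0.59), and rps27a, made as a fusion with ubiquitin, at 406 against 611 TPM (−0.59).

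The most abundant gene in both columns was rpl27a, with 1214 TPM in the α-amanitin column and 2440 TPM in the control column (log2 ratio −1.01), at ranks 17 and 7 of all named genes. In the α-amanitin column it was followed by rps14, rps2, rpl23 (793 TPM), rps20 (728 TPM), rplp0, rpl12 (679 TPM), rpl19, rps23 and rps29 (619 TPM). In the control column the next were rps29 (1431 TPM), rpl12 (1214 TPM), rpl23 (1123 TPM), rpl32 (1071 TPM), rpl38, rps12 (925 TPM), rps25 (917 TPM), rpl23a (906 TPM) and rps8a (902 TPM). The orders of the genes in the 2 columns had a Spearman correlation of 0.73 across 81 genes, which share a table and its reference transcripts.

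In families with 2 genes, the share of each gene in the summed transcript was compared. Paralogs can share reads, so the division between them is uncertain. For protein P2, rplp2 made up 43.03% of the family sum in the α-amanitin column and 12.6% in the control column, the remainder being rplp2l (509 against 606 TPM, log2 ratio −0.25). Of the sum of rpl7 and the L7-like gene rpl7l1, rpl7l1 made up 96.8% in the α-amanitin column and 57.6% in the control column. Whether the rpl7l1 protein can stand in for L7 was not tested. For protein S26, rps26 made up 89.6% and 62.8%, and rps26l was at 39.3 TPM in the α-amanitin column against 180.0 TPM in the control column (−2.17).

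The remaining families were closer in their division. Rpl5b made up 80.995% of its family in the α-amanitin column and 74.6% in the control column, and rps27.2 73.5% and 61.9%. Rps27.1 was at 77.4 against 265 TPM (log2 ratio −1.76) and rps27.2 at 215 against 431 TPM (−1.003). Rps8a, at 375 against 902 TPM (−1.27), had a copy, rps8b, with 5.97 TPM in the α-amanitin column and a listed 0 in the control column.

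Rpl22l1, the paralog of rpl22 with a role of its own in zebrafish blood development, differed between its own transcripts. Its coding RefSeq transcript had 21.0 TPM in the α-amanitin column and 3.38 TPM in the control column, a log2 ratio of 2.33. Its non-coding RefSeq transcript had 2.32 TPM in the α-amanitin column and 63.3 TPM in the control column, a log2 ratio of −4.28. Rpl22 itself was at 129 against 301 TPM (−1.21). The sum of the 2 transcripts of rpl22l1, 23.3 against 66.7 TPM (−1.48), therefore joins opposite differences.

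Another 5 genes had 2 RefSeq transcripts each. Both transcripts were lower in the α-amanitin column in all 5. In rpl29 they had close log2 ratios of −2.45 and −2.42. In rps12 the main transcript was at 613 against 864 TPM (−0.49), and the other was listed at 0 in the α-amanitin column against 60.5 TPM in the control column. In rpl17 one transcript was likewise listed at 0 in the α-amanitin column, against 29.5 TPM in the control column.

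**Figure D2:**
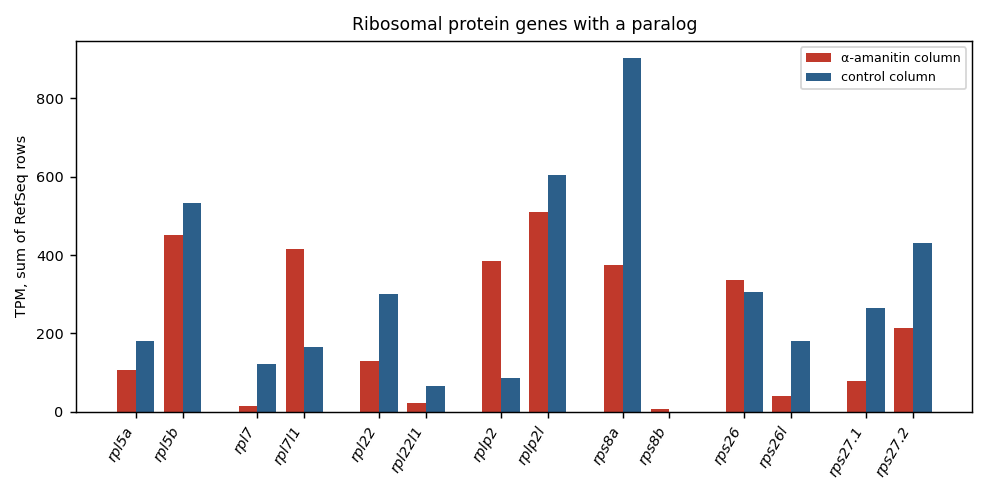
TPM of the ribosomal protein genes that have a paralog, as the sum of the RefSeq transcripts of each gene, with the α-amanitin column left of the control column for each gene. The bars for rplp2 (385 against 87.0 TPM) and rpl7l1 (417 against 165 TPM) are higher in the α-amanitin column, and those of their partners rplp2l and rpl7 are lower.

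Genes of related function were set beside the ribosomal proteins. Ribosomal proteins of the mitochondrion, which serve the cell's other ribosome, ran the other way: 37 of 72 genes were at least 2-fold higher in the α-amanitin column, 9 were at least 2-fold lower, and the median log2 ratio was 1.104 (0.62 on the scaled values). Of all named genes 25.7% were at least 2-fold higher and 22.5% at least 2-fold lower. On the scaled values the mitochondrial counts were 27 higher and 15 lower, where 18.8% of all named genes were higher and 30.4% lower. Of the 60 mitochondrial genes of at least 10 TPM in either column, 34 were at least 2-fold higher and 6 lower. Of all genes at that level, 42.0% were higher and 26.95% lower. The mitochondrial list summed to 2949 TPM in the α-amanitin column and 1222 TPM in the control column. Ribosome biogenesis factors, which build the subunits in the nucleolus, had 23 of 91 genes at least 2-fold lower and 23 at least 2-fold higher (median −0.28). Before scaling, these shares of 25.3% each are near those of all named genes. On the scaled values 40 of the 91 were lower and 15 higher, where 30.4% of all named genes were lower and 18.8% higher. Of the 84 factors of at least 10 TPM in either column, 22 were at least 2-fold lower and 23 higher. Of all genes of that level, 26.95% were lower and 42.0% higher. Among the biogenesis factors, nop56 of the snoRNA particles was at 4.62 against 80.0 TPM (−3.85). In contrast eif6, which keeps free large subunits from joining, was at 211 against 63.3 TPM (1.72).

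Of 32 other genes with TOP mRNAs in mammals, 12 were at least 2-fold lower in the α-amanitin column and 3 at least 2-fold higher, with a median log2 ratio of −0.39. These are 37.5% and 9.38% of the list, against 22.5% and 25.7% of all named genes. On the scaled values 15 of the 32 were lower and 0 higher, against 30.4% and 18.8% of all named genes. Of the 20 at 10 TPM or more in either column, 10 were at least 2-fold lower and 2 higher (median −1.17). For the 78 cytosolic ribosomal protein genes of that level, 39 were lower and 4 higher (median −0.99). Shares of all genes of that level were 26.95% and 42.0%. The elongation factor eef1a1l1 was at 1334 against 7703 TPM (−2.53), and the growth-related tpt1 at 1268 against 1387 TPM (−0.13). Both npm1a and npm1b are in this list and in that of biogenesis factors. Outside the symbol pattern, faua was at 46.9 against 253 TPM (−2.41) and faub at 263 against 148 TPM (0.82). The ribosome-bound gnb2l1 was at 283 TPM in the α-amanitin column and listed at 0 in the control column. It had 1 long-read model in each library, the untreated one included.

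**Figure D3:**
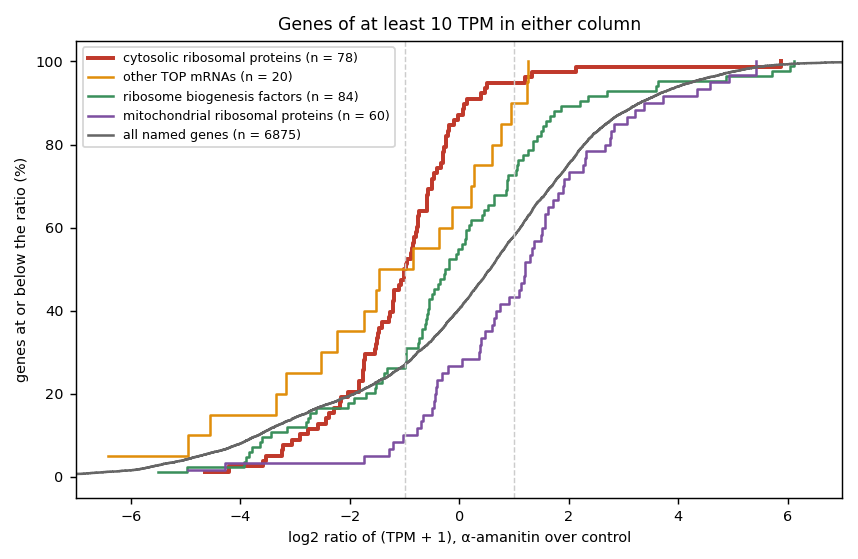
Cumulative share of genes by log2 ratio of (TPM + 1), α-amanitin over control, for genes of at least 10 TPM in either column, with dashed lines at 2-fold. The curve of the 78 cytosolic ribosomal protein genes has its median at −0.99 and 87.2% of genes below 0, against 0.56 and 40.4% for all 6875 genes, and the curve of the 60 mitochondrial ribosomal protein genes lies to the right of it (median 1.20). The other curves show 20 further TOP mRNAs (median −1.17) and 84 biogenesis factors (−0.23).

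The long-read libraries were then asked which ribosomal protein transcripts they held. In all there were 13102 models in the library of α-amanitin embryos and 12752 in that of untreated embryos. The tables give structures and lengths without read numbers, so a count of models is not an amount of RNA. Each library named 77 of the 82 ribosomal protein genes (93.9%, Wilson 95% interval 86.5 to 97.4), where the libraries of α-amanitin and untreated embryos named 44.3% and 43.6% of all named genes of the expression table. Among genes of at least 100 TPM in either column these shares were 81.9% and 81.0%. The intervals cover counting error only.

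Both libraries held 74 ribosomal protein genes, or 92.5% of the 80 found in either, against 72.2% of the 7662 reference genes found in either. The share over all reference genes was not matched for level. Rpl11, rpl34 and rps18 were seen with α-amanitin alone, and rpl22l1, rpl23a and rps27a without it alone. Neither library had a model of rps8b or of rpl27a, although rpl27a was the most abundant of these genes in the expression table. Rpl13 had 1 model in each library (717 bases with α-amanitin, 714 untreated) and no RefSeq row in the expression table under that symbol.

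The α-amanitin library had 98 models of these genes and the untreated library 94. At least 2 models were found for 18 of 77 genes with α-amanitin (23.4%, interval 15.3 to 33.95) and for 15 of 77 untreated (19.5%, 12.2 to 29.7), below the shares over all reference genes, 34.9% and 33.3%, in both point estimates. The shares over all reference genes were not matched for level. No ribosomal protein gene had more than 3 models. Rpl29, rpl5b and rps8a had 3 each with α-amanitin, and rpl29 also had 3 untreated.

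Most models matched every intron of the RefSeq transcript, the class that Cuffcompare marks with an equals sign. They were 61 of 98 with α-amanitin (62.2%, interval 52.4 to 71.2) and 60 of 94 untreated (63.8%, 53.8 to 72.8), against 40.4% and 40.3% of all models that name a gene. Models with another splice form made up 26.5% and 22.3%, against 32.6% and 30.4% of all. Models contained within a reference transcript made up 11.2% and 10.6%, against 18.4% and 20.1%. The shares over all models were not matched for level or model length, and the part of either was not tested. The untreated library had 3 models of other kinds, 1 within an intron of rpl14, 1 on the opposite strand at rpl19 and 1 run-on model near rps12.

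For 15 genes with models, no model in either library matched all introns, among them rpl7a, rpl8, rpl9, rpl10a, rpl11, rpl13, rpl15, rpl23a, rps2, rps7, rps15a, rps18, rps19 and rps26l. That is 18.8% of the 80 genes found, against 38.8% of all genes found, a share not matched for level or length. In rps7 the model of another splice form had the same length in both libraries, 705 bases. In rpl15 it had 699 bases with α-amanitin and 700 untreated, and in rps2 907 bases with α-amanitin and 912 untreated.

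**Figure D4:**
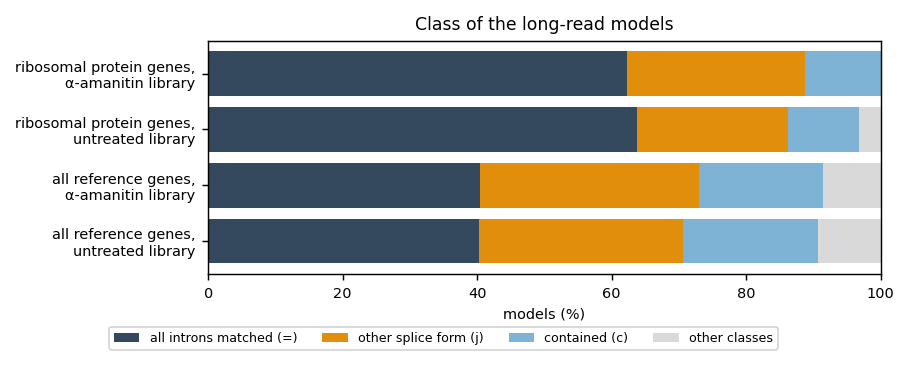
Share of long-read models by class, in percent, for ribosomal protein genes and for all reference genes in the α-amanitin and untreated libraries. The bars of the ribosomal protein genes have 62.2% (α-amanitin) and 63.8% (untreated) intron-matched models, against 40.4% and 40.3% for all reference genes.

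Intron-matched models of ribosomal protein genes were short, with a median length of 569 bases with α-amanitin (quartiles 477 and 766) and 542.5 bases untreated (460 and 716). For all intron-matched models the medians were 1751 and 1701 bases. No model of any gene was shorter than 295 bases with α-amanitin or 273 bases untreated. The median ratio to the RefSeq length was 1.01 with α-amanitin and 1.02 untreated. Within 10% of the RefSeq length were 40 of 61 models (65.6%, interval 53.05 to 76.3) and 41 of 60 models (68.3%, 55.8 to 78.7), close to the 69.5% and 69.6% over all genes.

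Since intron-matched models share their introns with the reference, a difference in length lies in the first or last exon. For 54 genes with such a model in both libraries, the longest model had a median length difference of 0 bases, and 27 genes agreed within 10 bases. In 4 genes it was over 100 bases longer in the α-amanitin library, among them rpl14 (948 against 524 bases), rps3 (1062 against 818) and rpl37 (468 against 353). In another 4 genes it was over 100 bases longer in the untreated library: rps20 (521 bases with α-amanitin, 761 untreated), rpl7l1 (1231 and 1428), rpl30 (467 and 658) and rps12 (477 and 645). The same counts over all genes are not given here, so whether these differences are unusual cannot be told. Rpl23 was long in both libraries, with 716 and 717 bases for a RefSeq transcript of 483 bases.

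In 6 genes the longest intron-matched model was under 0.9 of the RefSeq length: rpl31 (433 bases with α-amanitin and 432 untreated, for a RefSeq transcript of 1228), rpl36a (489 and 408, for 960), rps3a (859 in the α-amanitin library, for 1469), rps28 (349 and 350, for 513), rpl24 (534 and 533, for 635) and rpl22l1 (513 in the untreated library, for 571). In the expression table these 6 genes were low beside most other ribosomal protein genes. They had a median of 4.09 TPM in the α-amanitin column and 24.1 TPM in the control column. The 36 genes with a model of 0.9 to 1.1 of the RefSeq length had medians of 187 and 512 TPM. The 23 genes with a longer model had 375 and 613 TPM. For all genes with an intron-matched model, the medians in these classes were 3.57, 23.0 and 41.4 TPM in the α-amanitin column. In the control column they were 9.83, 12.8 and 7.05 TPM, so there the class with longer models was the lowest. Reads of a gene may be assigned to PacBio transcripts, which are separate rows of the table and were not joined to genes, and their part in these levels was not tested.

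Relative model length moved with the log2 ratio too. All 6 genes with a short model were at least 2-fold lower in the α-amanitin column (median log2 ratio −2.38), with the transcripts of a gene summed. For rpl22l1, whose short model matches the coding transcript, that transcript alone was higher (log2 ratio 2.33). Of the 36 genes with a model of RefSeq length 19 were (−1.14), and of the 23 with a longer model 7 were (−0.77). Over all genes with an intron-matched model the medians in these 3 classes were −1.03 (554 genes), 0.49 (3083 genes) and 1.97 (1002 genes). The median of the ribosomal protein genes was thus below that of all genes in each class, by the values given. In the short class the median of all genes was itself past 2-fold lower. Shares of all genes past 2-fold in these classes are not given here. The part of model length in the ratios was not tested.

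A low RefSeq level also occurred with a matching model. Rpl35 had an intron-matched model of 520 bases in both libraries, the length of its RefSeq transcript, and the table gave 2.28e-05 TPM in the α-amanitin column and a listed 0 in the control column. Rpl3, a protein near the site of peptide bond formation, had a 1298-base intron-matched model in both libraries for a RefSeq transcript of 1354 bases, with 2.64 TPM in the α-amanitin column and 4.29 TPM in the control column. These 2 genes and rps8b were the ones under 10 TPM in both columns. Levels of single genes and of the group here are thus those of RefSeq transcripts and not of whole genes.

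**Figure D5:**
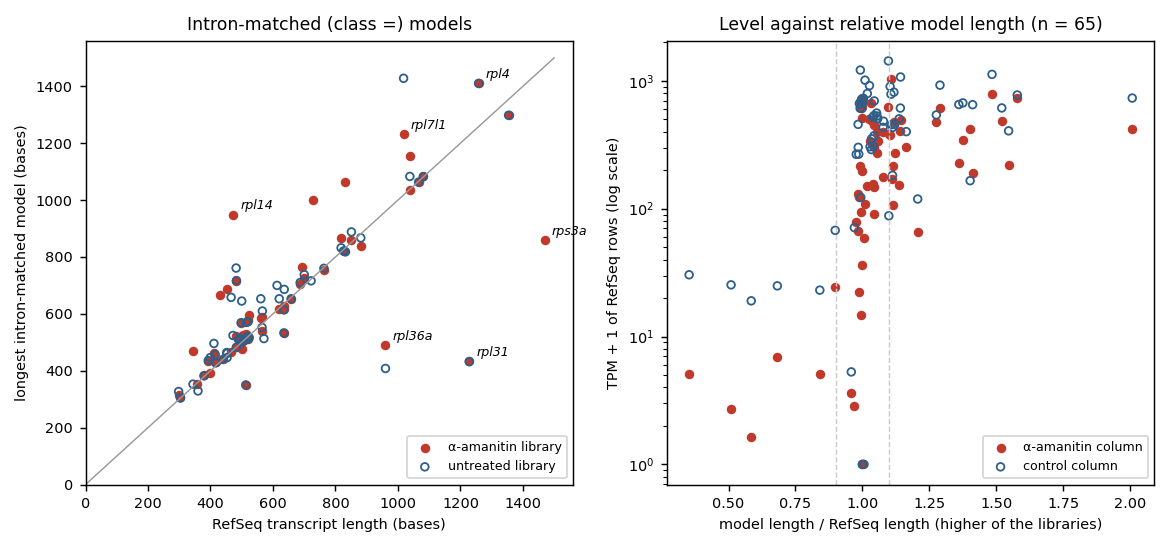
Left, length in bases of the longest intron-matched model of each ribosomal protein gene against the length of its RefSeq transcript, in the α-amanitin library (filled) and the untreated library (open), with the line of equal length. Right, TPM + 1 of the RefSeq transcripts on a log axis against model length divided by RefSeq length for 65 genes, where the 6 genes left of 0.9 lie at a median of 4.09 TPM in the α-amanitin column and 24.1 TPM in the control column.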

How the data were processed

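Per the series description, the authors assembled PacBio reads with IsoSeq, mapped the transcripts to GRCz10 with GMAP and compared them with RefSeq by Cuffcompare. Tool versions for these steps are not given in the sources used here. The submitters' processing notes also name kallisto, without a role. The deposited Cuffcompare tables give the other quantity used, the length of each model in bases, per the file headers. The deposited expression values are on a log2 scale, log2(TPM + 1); this was read from the values, since they sum to 1000000 TPM in each column after conversion. Its depth and the reads it holds are unknown.

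Symbols came from the Cuffcompare tables (7695 of 15936 RefSeq rows) or from a RefSeq gene table of assembly GRCz12tu (7760 rows). The TPM of all RefSeq rows of a symbol were summed, a pseudocount of 1 TPM was added, and the threshold was 2-fold. The 16639 PacBio rows were not joined to genes, and 0 columns were left unused. No test was made, because each group has 1 library; shares have Wilson 95% intervals (Python 3.11.15, numpy 2.4.6, pandas 2.3.3, scipy 1.17.1, matplotlib 3.10.9). The log2 ratio step was run on simulated data with known changes and no added noise, which checks its arithmetic only. A written rule for naming genes took the 10 most abundant per column, the 10 lowest and 10 highest ratios at 10 TPM or more, paralogs and functional sites. It also took genes with most models or with models in 1 or no library. Examples from related lists, such as nop56, eif6, eef1a1l1 and tpt1, were picked outside this rule. So were genes named for model length or low level, such as rpl37, rpl30 and rpl3. Alternatives covered the pseudocount, scaling, filters, the threshold, classes and lengths. The genes and lists were chosen with earlier results of these data known. Sequences were not used here. The values of some single genes are not reported here.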

Additional observations from a re-analysis of the deposited data

How the results depend on the processing

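No paired analysis was possible because each group has 1 library. With 1 library per group, only counts, medians and shares could be compared between settings, and unknown read depth limits every expression value. The count of ribosomal protein genes at least 2-fold lower in the α-amanitin column (39 of 81) stayed between 35 and 55 in several settings. Those were another pseudocount, scaling, RefSeq rows rescaled to 1000000 TPM and the 87 single RefSeq rows. Also among them were the 78 genes of at least 10 TPM and the 77 canonical genes (without rpl7l1, rpl22l1, rplp2l and rps26l). No share of all named genes is given for another pseudocount, rescaled rows or single rows. Whether the counts in those settings are unusual cannot be told. A 4-fold threshold left 16 lower and 3 higher, and scaling left 3 higher instead of 5. No share of all named genes past 4-fold is given here, so whether the 4-fold counts are unusual cannot be told. In both settings the 3 higher genes were rpl28, rplp2 and rps8b. The control value was close to 0 for rpl28 and listed at 0 for rps8b.

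The median log2 ratio (−0.95) was −0.86 with a pseudocount of 10 TPM, −1.43 with scaling, −0.84 with rescaled RefSeq rows, −1.003 over single rows and −0.99 at 10 TPM or more. Settings chosen after seeing the data gave 3 genes higher and a median of −0.87 at 100 TPM or more, and 19 lower, 3 higher and −1.14 in the 36 genes with a model of RefSeq length.

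Summed levels (23754 TPM in the α-amanitin column, 40458 TPM in the control column) were 57707 and 91156 TPM with rescaled rows, 22765 and 39441 TPM with canonical genes only, and 22540 and 38018 TPM without rpl27a. Of the log2 ratios of the 81 genes, scaling turned 6 and rescaling 2, none of them past 2-fold, and both pseudocounts 0. Requiring at least 2 models left 39 models of 18 genes with α-amanitin and 32 models of 15 genes untreated. A tolerance of 20% of the RefSeq length raised the shares of intron-matched models to 80.3% and 85.0%. The cause of these shifts was not tested. Settings for promoters were not run, since no promoter sequence was used here.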
